A study of Mus musculus with 6 samples.

Results

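Lysosomal genes were compared between livers of mice given inosine by intraperitoneal injection and livers of control mice. They were taken as the genes whose KEGG pathway annotation in the deposited table includes the entry Lysosome, which gave 127 of 16375 genes. Bulk RNA sequencing of whole-liver RNA gave 3 inosine and 3 control libraries. Inosine is the nucleoside left when adenosine loses its amino group. Both groups carry the label liver, and the labels give the treatment as the only difference between them. Neither the strain, sex, age, dose, number of injections or time of collection nor what the control animals received is stated in the labels. They do not say whether the libraries came from separate animals, so p-values cover the spread between libraries only, and that spread may be technical.

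Lysosomes are acidic, membrane-bound organelles that break down proteins, lipids, glycans and nucleic acids delivered by endocytosis and autophagy. Their soluble hydrolases are made in the endoplasmic reticulum, receive a mannose 6-phosphate tag in the Golgi and are carried to the lysosome in clathrin-coated vesicles, while a proton pump, the V-ATPase, keeps the lumen acidic. Many of the genes are known targets of the transcription factors TFEB and TFE3, which bind a short palindromic promoter element named CLEAR. In liver, hepatocytes and the resident macrophages (Kupffer cells) are both rich in lysosomes.

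The libraries held 16862048 to 17505035 counts in the inosine group and 16383896 to 17009895 in the control group. All 10 hepatocyte markers were detected in each group, summing to 113437 to 127030 CPM (counts scaled to a common library size, with the trimmed mean of M values, TMM) in inosine libraries and 96333 to 127856 CPM in control libraries. A low-count filter left 120 lysosome genes and 12326 genes in all for testing. Levels for comparing groups are TMM-scaled CPM, levels for comparing genes with each other are the authors' TPM (a relative abundance that accounts for transcript length), and fold changes are inosine over control on the log2 scale.

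Transcripts of the lysosome as a whole stood at nearly the same level in both groups. Of the 120 tested genes 60 were higher and 60 lower in inosine-treated liver, and their median log2 fold change was -0.0015, beside -0.0095 over all genes tested. In total 105 of them, 87.5%, lay within 0.25 of 0 on the log2 scale, beside 70.7% of all genes tested; lysosome genes also carried more counts, at a median of 30.4 CPM against 16.3 CPM over all genes tested. With edgeR's quasi-likelihood test and Benjamini-Hochberg adjustment over all genes tested, 0 lysosome genes passed the threshold of 0.05, where 0.00811% of all genes did. At an unadjusted p under 0.05 there were 14 (11.7%), 7 higher and 7 lower, which is below the 14.5% of all genes that reached it (7.21% higher and 7.26% lower). Groups did not overlap for 22 lysosome genes (18.3%), 12 higher and 10 lower, beside 20.9% of all genes (11.1% higher and 9.8% lower). DESeq2 called 1 lysosome gene, Arsa, where it called 2.14% of all genes to which it gave an adjusted p, and the authors' deposited table likewise holds 1 at a q-value under 0.05, Arsa, where 1.17% of all genes pass. Without control 1, edgeR called Arsa alone, beside 0.449% of all genes. In that setting 19 of 121 lysosome genes (15.7%) had an unadjusted p under 0.05, beside 19.4% of all genes. Omitting any other library left 5 to 11 lysosome genes at that level. These were 4.13% to 9.17% of lysosome genes, beside 9.75% to 12.3% of all genes.

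Summed over all 127 members, lysosomal transcripts made up 0.617%, 0.653% and 0.545% of all TPM in inosine libraries 1 to 3, against 0.576%, 0.524% and 0.583% in control libraries 1 to 3. The groups overlapped, with inosine 3 below controls 1 and 3. The mean share was 0.605 ± 0.055% in inosine and 0.561 ± 0.032% in control liver (SD, n = 3). As TMM-scaled counts the sums were 9065 ± 42 CPM in inosine and 8846 ± 330 CPM in control (SD, n = 3). A few genes carried most of this level: the 10 most abundant members held 56.5% of the lysosomal TPM. In order of their mean TPM they were the proteases Ctsl and Ctsb, the membrane glycoproteins Lamp1 and Lamp2, Ctsh, the sphingolipid activator Psap, Ctsd, the pump subunit Atp6v0c, Ctsz and the membrane mucin Cd164. In the middle of the range 62 members lay between 10 and 100 TPM, 38 lay between 1 and 10 TPM, and 13 lay under 1 TPM.

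**Figure D1:**
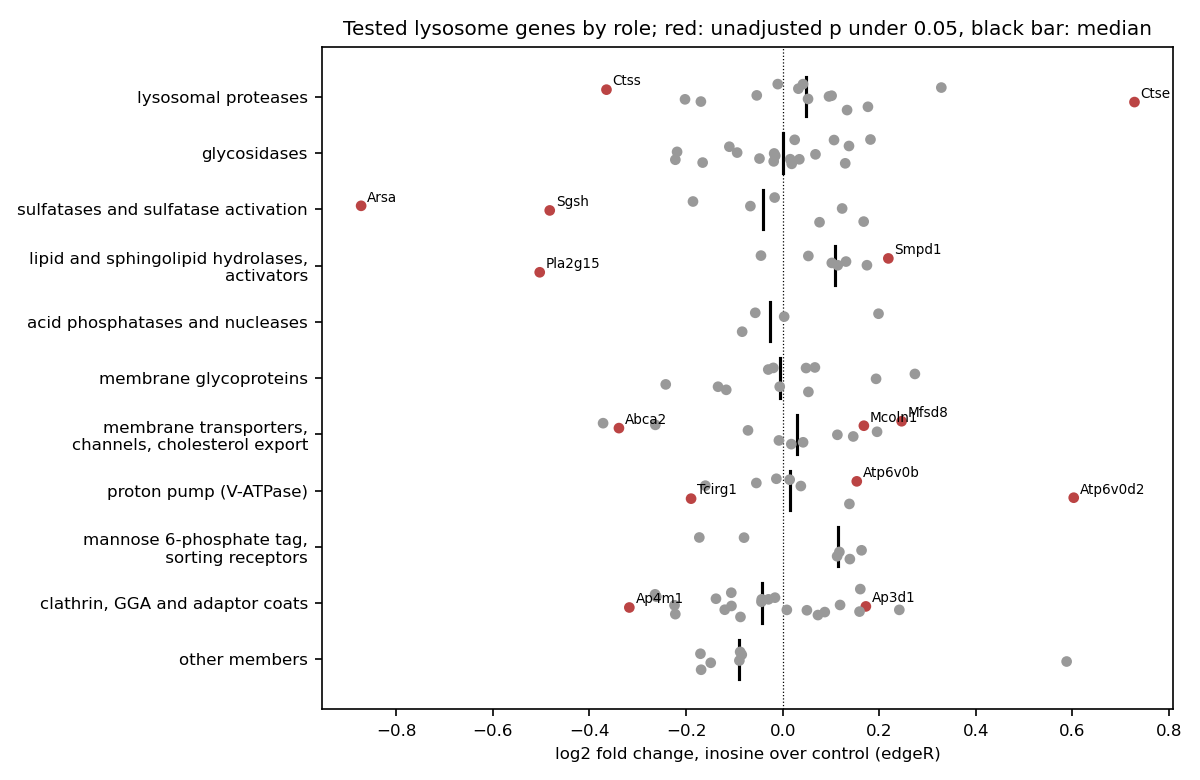
Log2 fold change (x axis, inosine over control, edgeR) of each of the 120 tested lysosome genes, in rows by role. Red points have an unadjusted p under 0.05 and are named, grey points do not, and black bars are row medians, which lie between -0.09 and 0.12; Arsa lies farthest to the left at -0.87 and Ctse farthest to the right at 0.73.

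Arsa was the lysosomal gene that differed most clearly. It encodes arylsulfatase A, which removes the sulfate from sulfatide, a myelin and kidney lipid, and whose loss in humans causes metachromatic leukodystrophy. The gene (gene ID 11883) lies on the minus strand of chromosome 15 of GRCm39, from 89356679 to 89361627. Arsa measured 11.2, 10.8 and 11.97 CPM in inosine libraries 1 to 3, against 19.9, 20.6 and 21.6 CPM in control libraries 1 to 3, from 199, 188 and 192 counts against 329, 343 and 371. The highest inosine library lay well below the lowest control, and each group spread by less than 2 CPM. In TPM it stood at 4.62 ± 0.14 in inosine and 8.10 ± 0.35 in control liver (SD, n = 3), the 90th most abundant member. Its log2 fold change was -0.87 (SE 0.09), a level of 54.6% of control, at an edgeR adjusted p = 0.0502, just above the threshold. DESeq2 called it lower (adjusted p = 2.5e-06), and so did the authors' deposited table (log2 fold change -0.87, q-value 7.8e-06). In edgeR Arsa passed without the low-count filter (adjusted p = 0.028) and without control 1 (adjusted p = 0.035), and did not pass in the other 5 omissions of a library (adjusted p = 0.089 to 0.235), over which, with control 1's, its log2 fold change ran from -0.91 to -0.84.

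The other sulfatases lay closer to their control levels. Sgsh, the sulfamidase of heparan sulfate breakdown, measured 6.53, 7.45 and 4.80 CPM in inosine libraries 1 to 3, against 8.47, 9.01 and 8.81 CPM in control libraries 1 to 3. Its groups did not overlap, with inosine 3 lowest, and its log2 fold change was -0.48 (SE 0.17, edgeR unadjusted p = 0.021, adjusted p = 0.27). Sgsh overlaps Slc26a11 (log2 -0.35) by only 9 bases and Card14 by 1891 bases, both on the opposite strand. Card14 was weakly expressed, at a mean of 0.537 CPM. Without knowledge of strand, reads from the shared bases cannot be told apart. Arsb, which acts on dermatan sulfate, was at -0.19, Arsg at -0.07 and Galns, which acts on keratan sulfate, at -0.02. Ids, the iduronate sulfatase, was at 0.12. Sumf1, which encodes the enzyme that activates every sulfatase by making its catalytic formylglycine, was at 0.17 (SE 0.08, edgeR adjusted p = 0.40). Of the 8 genes in this role 3 were higher and 5 lower, with a median of -0.04. An unadjusted p under 0.05 was reached by 2 of the 8, Arsa and Sgsh, beside 14.5% of all genes.

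Promoter sequence is shown for Arsa, the gene that differed most, and beside it for Mcoln1, Ctsd and Lamp1, a channel, a protease and a membrane glycoprotein whose promoters hold the CLEAR core or several E-boxes. Each is the 250 bases before the RefSeq start in GRCm38.p6, written 5′ to 3′ on the strand of the gene: chr15:89477425-89477674 on the minus strand for Arsa, chr8:3500269-3500518 on the plus strand for Mcoln1, chr7:142387828-142388077 on the minus strand for Ctsd and chr8:13158911-13159160 on the plus strand for Lamp1. Capitals mark the E-box CACGTG, and the longer CLEAR core TCACGTGA where it is complete.
Arsa: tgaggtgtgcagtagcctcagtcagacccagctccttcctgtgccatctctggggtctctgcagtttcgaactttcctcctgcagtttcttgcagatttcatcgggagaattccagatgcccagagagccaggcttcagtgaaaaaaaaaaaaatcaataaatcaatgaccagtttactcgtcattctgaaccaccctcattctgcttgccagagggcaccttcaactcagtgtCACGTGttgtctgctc
Mcoln1: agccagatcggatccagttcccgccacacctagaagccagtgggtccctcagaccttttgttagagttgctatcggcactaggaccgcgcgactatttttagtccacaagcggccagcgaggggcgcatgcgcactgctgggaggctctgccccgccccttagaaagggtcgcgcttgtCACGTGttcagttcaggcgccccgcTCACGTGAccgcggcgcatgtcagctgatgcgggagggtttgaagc
Ctsd: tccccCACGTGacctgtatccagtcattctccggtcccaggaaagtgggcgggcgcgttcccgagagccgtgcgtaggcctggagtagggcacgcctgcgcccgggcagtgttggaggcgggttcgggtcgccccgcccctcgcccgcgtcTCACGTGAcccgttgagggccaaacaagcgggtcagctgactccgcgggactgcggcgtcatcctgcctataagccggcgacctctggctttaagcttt
Lamp1: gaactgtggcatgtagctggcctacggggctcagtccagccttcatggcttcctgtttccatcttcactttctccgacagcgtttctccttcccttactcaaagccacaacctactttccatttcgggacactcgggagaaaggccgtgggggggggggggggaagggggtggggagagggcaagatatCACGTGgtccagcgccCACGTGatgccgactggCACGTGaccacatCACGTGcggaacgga

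The Arsa window held a single E-box, 16 bases before the start, and no complete CLEAR core. Lamp1 had 4 E-boxes within 61 bases of its start, and Mcoln1 and Ctsd had 1 CLEAR core each, 46 and 99 bases before theirs. RefSeq windows reaching from 250 bases before to 50 after a start were matched by gene ID for 99 of the 127 members (118 windows). The CLEAR core stood in 11 of these windows, 9.32%, beside 0.974% of all 32851 windows in the table and 1.81% of the windows of tested genes. The E-box stood in 21.2% of members' windows, beside 7.15% of all windows and 9.68% of the windows of tested genes. Both motifs are palindromes, so a match reads the same on both strands, and each CLEAR core contains an E-box. The 10 members with a CLEAR core (Atp6v0d1, Cd164, Cln3, Ctsa, Ctsd, Gla, Gnptg, Igf2r, Mcoln1 and Sumf1) had a median log2 fold change of 0.04, with 6 higher and 4 lower, and the 85 tested members whose window lacked it had one of -0.02. A match is a match of letters and was not tested for binding. Many members are known targets of factors that bind CLEAR, so its higher share among them is not an independent result.

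Among enzymes of lipid breakdown 6 of 8 genes were higher and the median log2 fold change was 0.11. Smpd1, the acid sphingomyelinase that cuts sphingomyelin to ceramide, measured 50.7, 50.5 and 47.9 CPM in inosine libraries 1 to 3, against 41.0, 41.9 and 45.2 CPM in control libraries 1 to 3. All inosine libraries lay above all controls, by a small margin (log2 0.22, SE 0.07, edgeR unadjusted p = 0.018, adjusted p = 0.26). Psap, the precursor of the saposins that present sphingolipids to hydrolases, including sulfatide to arylsulfatase A, measured 482, 502 and 464 CPM in inosine libraries, against 435, 397 and 451 CPM in control libraries (log2 0.17, SE 0.09, edgeR adjusted p = 0.43). Its groups were separate too, and those of Asah1, the acid ceramidase (0.13), likewise. Pla2g15, a lysosomal phospholipase A2, pointed the other way at 14.0, 13.3 and 10.1 CPM in inosine libraries, against 15.7, 17.6 and 19.6 CPM in control libraries. Its log2 fold change was -0.50 (SE 0.15, edgeR unadjusted p = 0.0093, adjusted p = 0.22), without overlap of the groups. Lipa, the acid lipase of cholesteryl esters and triglycerides, was at 0.10, the palmitoyl thioesterases Ppt1 and Ppt2 at 0.05 and 0.11, and the ganglioside activator Gm2a at -0.05. Asah1 shares 57807 bases with Frg1 (mean 14.7 CPM) on the other strand. Reads from those bases are not separable without strand.

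**Figure D2:**
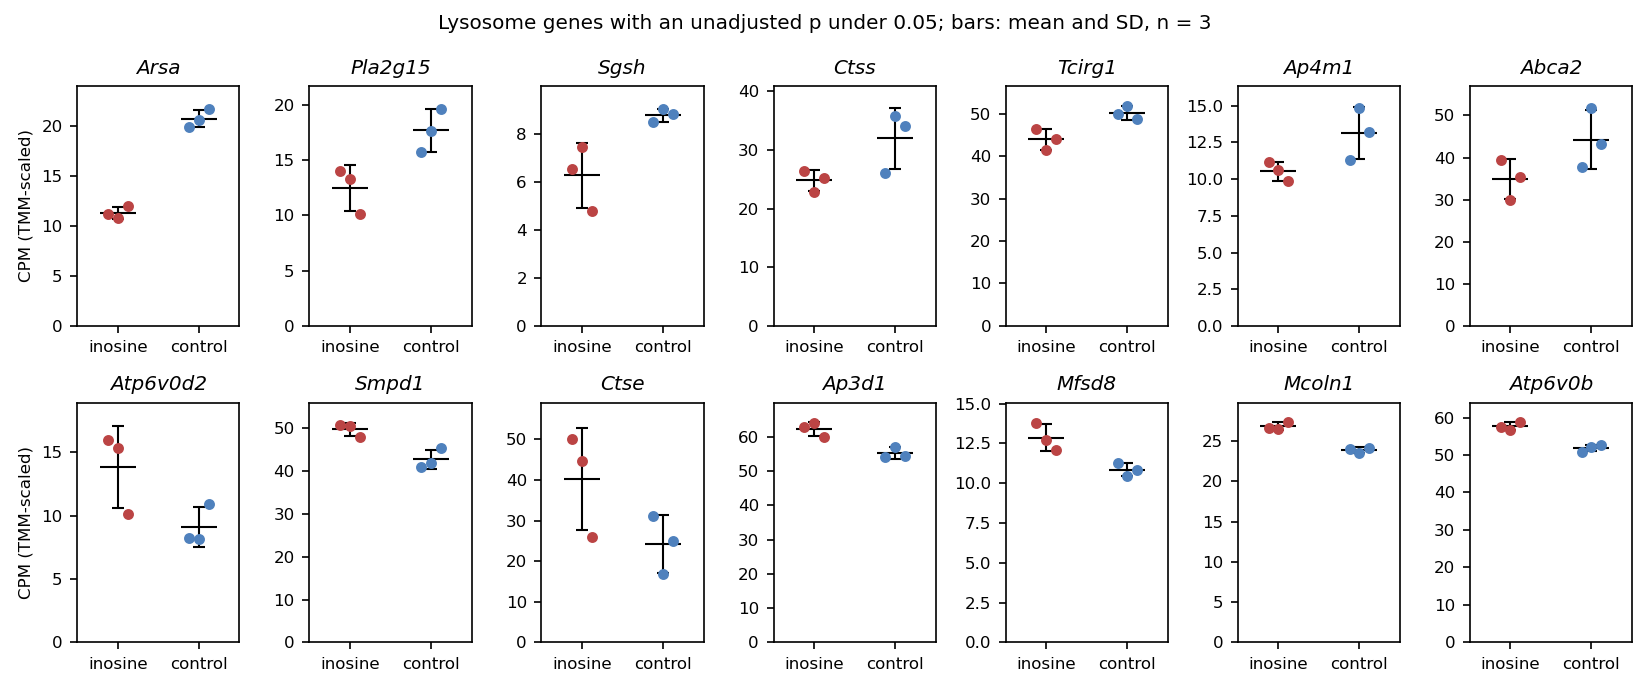
TMM-scaled CPM (y axis, from 0) by library for the 14 lysosome genes with an unadjusted p under 0.05, inosine left (red) and control right (blue), lower genes in the top row and higher genes in the bottom row; bars are mean and SD, n = 3. Arsa shows the widest gap relative to its spread, and Ctss, Abca2, Atp6v0d2 and Ctse show overlapping groups.

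None of the 18 glycosidases and related enzymes reached an unadjusted p under 0.05 in edgeR, beside 14.5% of all genes, and all lay within 0.25 of 0, beside 70.7% of all genes. Most of these enzymes cut sugars from glycolipids, glycoproteins and glycosaminoglycans. Gla, alpha-galactosidase A, had the smallest p, with 5.63, 5.33 and 5.24 CPM in inosine libraries, against 6.66, 5.88 and 6.36 CPM in control libraries (log2 -0.22, SE 0.13, edgeR adjusted p = 0.46). Those libraries did not overlap. Galc, which takes the galactose from the product of arylsulfatase A, was at -0.02, and Glb1, beta-galactosidase, at 0.14. Glb1 shares 10107 bases with Tmppe (log2 -0.41) on the same strand. Gaa, the acid alpha-glucosidase that digests lysosomal glycogen, was at 0.13. Hexa, which takes part in ganglioside breakdown, was at -0.02. Of the heparan sulfate enzymes beside Sgsh, Naglu was at -0.09, Hgsnat at 0.11, Idua at -0.22 and Gusb at 0.02. Idua shares 8503 bases with the far more abundant Slc26a1 (mean 190 CPM, log2 -0.23) on the other strand. Reads from those bases are not separable without strand. The 4 acid phosphatases and nucleases lay between -0.08 and 0.20. Dnase2b, an acid DNase, had the smallest p among these, at 23.2, 24.8 and 20.5 CPM in inosine libraries, against 25.2, 15.1 and 19.3 CPM in control libraries (log2 0.20, edgeR adjusted p = 0.63), and its groups overlapped. Its gene overlaps 19912 bases of the abundant Uox on the other strand.

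Lysosomal proteases were the most abundant role, at 1929 to 2422 TPM in inosine libraries and 1888 to 2177 TPM in control libraries. Ctsl, a cysteine protease and the most abundant member of all, measured 536, 758 and 619 CPM in inosine libraries, against 648, 596 and 742 CPM in control libraries (log2 -0.05, SE 0.15). Ctsb, another cysteine protease, stood at 712 ± 65 CPM in inosine and 717 ± 51 CPM in control, and the aspartic protease Ctsd at 288 ± 6 CPM in inosine and 280 ± 8 CPM in control (SD, n = 3). The groups overlapped for each of these 3, and their edgeR adjusted p lay between 0.838 and 0.978. Of 14 proteases tested 9 were higher and 5 lower. Ctse, an aspartic protease found in endosomes, had the largest positive log2 fold change of all tested members, 0.73 (SE 0.28, edgeR unadjusted p = 0.031, adjusted p = 0.30). It measured 50.1, 44.6 and 25.9 CPM in inosine libraries 1 to 3, against 31.1, 16.9 and 24.9 CPM in control libraries 1 to 3. Inosine 3 lay within the control range, so the groups overlapped. Ctsh, an aminopeptidase, measured 297, 291 and 268 CPM in inosine libraries, against 254, 175 and 253 CPM in control libraries (log2 0.33, SE 0.15, edgeR adjusted p = 0.37), with control 2 well below the rest.

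Ctss, the cathepsin that macrophages and other antigen-presenting cells use to process the invariant chain, was at 26.4, 22.9 and 25.3 CPM in inosine libraries 1 to 3, against 26.1, 35.8 and 34.0 CPM in control libraries 1 to 3. Control 1 lay among the inosine libraries (log2 -0.36, SE 0.13, edgeR unadjusted p = 0.022, adjusted p = 0.28). Other members known for high expression in macrophages measured -0.37 for the metal transporter Slc11a1, -0.24 for Laptm5, a membrane protein of blood cells, and -0.13 for Cd68, and none of the 3 passed (edgeR adjusted p = 0.36, 0.45 and 0.81). Atp6v0d2, a pump subunit known from osteoclasts and macrophages, pointed the other way at 0.60 (edgeR adjusted p = 0.26). Laptm5 and Atp6v0d2 were named by the rule given below, and Slc11a1 and Cd68 after their values were seen. Grouping these 4 was also done with their values known, and they are not a list of all macrophage-expressed members. Laptm5 had the smallest p among the membrane glycoproteins, with 12.2, 10.5 and 12.7 CPM in inosine libraries, against 11.8, 14.7 and 15.3 CPM in control libraries. Of 13 markers of Kupffer cells and macrophages, none of which is a member, 12 were lower and 1 higher, with a median of -0.21. They summed to 440.8 to 503.7 CPM in inosine libraries and 462 to 615 CPM in control libraries, none was at 0, and control 1 was the lowest control there too. Markers of several other cell types were also mostly lower in inosine. This held for 10 of 11 of sinusoidal endothelium, 11 of 11 of stellate cells and fibroblasts and 5 of 5 of red blood cells. Their medians were -0.35, -0.40 and -0.89. Inosine 2 stood at control level for the first 2 lists. Its median log2 differences from the control mean were -0.04 (endothelial) and 0.01 (stellate). Inosine 1 had -0.65 and -0.49, and inosine 3 had -0.38 and -0.53. Red cell markers summed to 305 to 505 CPM in inosine and 645 to 851 CPM in control libraries, without overlap, endothelial markers to 216 to 308 CPM in inosine and 310 to 354 CPM in control libraries, and stellate markers to 219 to 343 CPM in inosine and 314 to 341 CPM in control libraries. The 3 of 5 neutrophil markers that could be tested were lower as well (median -0.42), at a summed 2.87 to 6.30 CPM in inosine and 2.48 to 7.44 CPM in control libraries, while 7 of 10 hepatocyte markers were higher (median 0.13). The part of these cell markers in the values of lysosome genes, Arsa, Ctss and Laptm5 included, was not tested. In bulk RNA, fewer cells of a type and less RNA per cell cannot be told apart.

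**Figure D3:**
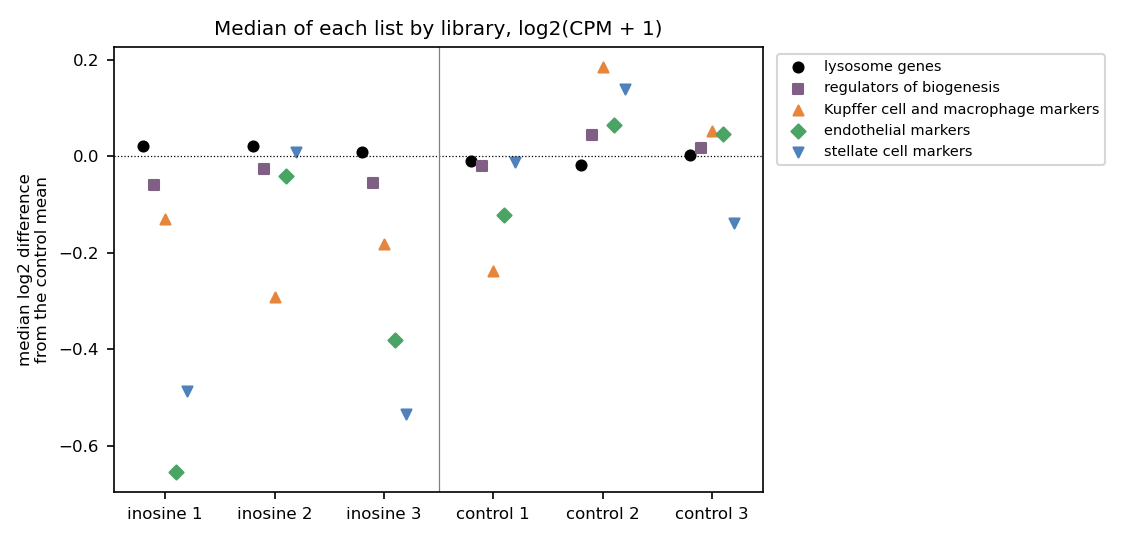
Median log2 difference from the control mean (y axis, log2 of CPM + 1) in each library (x axis) for the tested lysosome genes, the regulators of lysosome biogenesis and 3 lists of markers of non-parenchymal cells. The lysosome genes lie between -0.02 and 0.02 in all 6 libraries, while the marker lists reach -0.65 in inosine 1 (endothelial) and the macrophage markers lie at -0.24 in control 1. In inosine 2 the endothelial and stellate lists lie near the control mean, at -0.04 and 0.01.

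The structural glycoproteins of the lysosomal membrane stood level. Lamp1 measured 675, 633 and 706 CPM in inosine libraries, against 620, 609 and 718 CPM in control libraries (log2 0.05, SE 0.11). Lamp2, which also serves chaperone-mediated autophagy, measured 643, 594 and 637 CPM in inosine libraries, against 663, 618 and 618 CPM in control libraries (log2 -0.02, SE 0.09). Their groups overlapped, with edgeR adjusted p of 0.86 and 0.95. Scarb2, a lysosomal membrane protein that also acts as a sorting receptor, was at 0.27 (SE 0.18, edgeR adjusted p = 0.52), with control 2 at 115 CPM and the other 5 libraries between 165 and 213 CPM. Of 11 membrane glycoproteins tested 0 had an unadjusted p under 0.05 in edgeR, beside 14.5% of all genes, and 0 an adjusted p under 0.05 in DESeq2, beside 2.14% of all genes. Entpd4 and Entpd4b are close copies that reads can be divided between: Entpd4 had 5.97, 0 and 3.31 CPM in inosine libraries and 0 in every control library, but the sum of both was 31.5, 33.3 and 35.4 CPM in inosine libraries, against 32.3, 35.4 and 30.9 CPM in control libraries.

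Transporters and channels showed small differences in both directions, with 7 of 12 higher. Mcoln1, the calcium channel TRPML1, measured 26.6, 26.5 and 27.4 CPM in inosine libraries, against 23.97, 23.5 and 24.2 CPM in control libraries. The groups were tight and separate (log2 0.17, SE 0.07, edgeR unadjusted p = 0.045, adjusted p = 0.33). Mfsd8, a lysosomal membrane protein mutated in a childhood neuronal storage disease, measured 13.8, 12.7 and 12.1 CPM in inosine libraries, against 11.3, 10.4 and 10.9 CPM in control libraries (log2 0.25, SE 0.10, edgeR adjusted p = 0.33). Abca2, a lipid transporter, measured 39.5, 30.0 and 35.5 CPM in inosine libraries, against 37.8, 51.7 and 43.2 CPM in control libraries (log2 -0.34, SE 0.14, edgeR adjusted p = 0.32), so control 1 lay below inosine 1. The pair that exports cholesterol from the lysosome, the membrane protein Npc1 and the soluble carrier Npc2, stood at 141 ± 17 CPM in inosine and 139 ± 16 CPM in control for Npc1, and at 80.3 ± 3.9 CPM in inosine and 74.2 ± 3.6 CPM in control for Npc2 (SD, n = 3). Their log2 fold changes were 0.02 and 0.11, with edgeR adjusted p of 0.96 and 0.52.

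Of 9 tested subunits of the proton pump 5 were higher and 4 lower, with a median log2 fold change of 0.01, and 3 had an unadjusted p under 0.05, beside 14.5% of all genes. Atp6v0d2, an alternative d subunit, measured 15.98, 15.35 and 10.10 CPM in inosine libraries, against 8.23, 8.16 and 10.91 CPM in control libraries. Inosine 3 lay below control 3 (log2 0.60, SE 0.20, edgeR unadjusted p = 0.017, adjusted p = 0.26). Its widely expressed counterpart Atp6v0d1 was at 0.04. It was the more abundant per length, at 70.9 ± 3.1 TPM in inosine and 66.1 ± 3.3 TPM in control, where Atp6v0d2 stood at 8.31 ± 2.48 TPM in inosine and 5.17 ± 0.91 TPM in control (SD, n = 3). Tcirg1, the a3 subunit, measured 46.4, 41.4 and 44.0 CPM in inosine libraries, against 49.9, 51.8 and 48.7 CPM in control libraries (log2 -0.19, SE 0.07, edgeR adjusted p = 0.31), without overlap. Atp6v0b, a subunit of the proton-carrying ring, measured 57.5, 56.7 and 58.9 CPM in inosine libraries, against 50.8, 52.2 and 52.6 CPM in control libraries (log2 0.15, SE 0.07, edgeR adjusted p = 0.34), also without overlap. The other 6 lay between -0.16 and 0.14. Of 9 further pump genes outside the KEGG entry, mostly of its catalytic V1 sector, 6 were higher, at a median log2 fold change of 0.08 for the 9; Atp6ap2, the prorenin receptor, was at 0.19 and Atp6v1d at 0.23 (edgeR adjusted p = 0.30 and 0.36).

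Of the machinery that tags and sorts hydrolases, 4 of 6 genes were higher and the median log2 fold change was 0.12. M6pr, the cation-dependent mannose 6-phosphate receptor, measured 119, 122 and 116 CPM in inosine libraries, against 105, 109 and 117 CPM in control libraries (log2 0.11, SE 0.08, edgeR adjusted p = 0.53). Igf2r, the larger receptor that also clears insulin-like growth factor 2, measured 35.1, 31.0 and 30.2 CPM in inosine libraries, against 35.6, 33.6 and 32.7 CPM in control libraries (log2 -0.08, SE 0.08, edgeR adjusted p = 0.69). Both overlapped between groups. Gnptab and Gnptg, the subunits of the enzyme that starts the tag, were at -0.17 and 0.14, and Nagpa, which uncovers it, had the smallest p of the role at 0.16 (SE 0.10, edgeR adjusted p = 0.47). Coat proteins numbered 23 tested, 9 higher and 14 lower, with a median of -0.04. Ap3d1, the delta subunit of the adaptor that carries membrane proteins to lysosomes, measured 62.7, 63.9 and 59.9 CPM in inosine libraries, against 54.0, 57.1 and 54.4 CPM in control libraries (log2 0.17, SE 0.07, edgeR unadjusted p = 0.039, adjusted p = 0.32). Ap4m1, a subunit of the adaptor AP-4, measured 11.1, 10.6 and 9.85 CPM in inosine libraries, against 11.3, 14.8 and 13.2 CPM in control libraries (log2 -0.32, SE 0.13, edgeR adjusted p = 0.31). Neither overlapped between groups, but control 1 was close to inosine 1 for Ap4m1. Ap4m1 shares 393 bases with Mcm7 (-0.27) and 1813 bases with Taf6 (-0.14) on the other strand, so their reads are not separable without strand.

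Regulators of lysosome biogenesis outside the KEGG entry were followed in a list of 20, of which 19 were tested, 5 higher and 14 lower, with a median of -0.03. In edgeR 0 passed over all genes tested. An unadjusted p under 0.05 was reached by 3 (15.8%), close to the 14.5% of all genes. The 3 were all lower, and 7.26% of all genes were lower at that level. All 3 encode folliculin or its partners, which together act on the Rag GTPases at the lysosomal surface and are known to keep TFEB and TFE3 phosphorylated in the cytosol. Flcn, folliculin itself, measured 21.6, 21.4 and 24.1 CPM in inosine libraries 1 to 3, against 25.0, 41.3 and 38.7 CPM in control libraries 1 to 3. The groups did not overlap, but control 1 stood next to the inosine libraries and far from the other controls (log2 -0.65, SE 0.18, edgeR unadjusted p = 0.0067, adjusted p = 0.196). DESeq2 called Flcn lower (adjusted p = 0.0395), the authors' deposited table gives it a q-value of 0.061, and edgeR called it without control 1 (log2 -0.84, adjusted p = 0.035). Over all settings its adjusted p ran from 0.035 to 0.458. Fnip2 measured 40.7, 40.9 and 30.6 CPM in inosine libraries, against 47.4, 48.4 and 56.0 CPM in control libraries, without overlap (log2 -0.44, SE 0.13, edgeR adjusted p = 0.22). Fnip1, named after its values were seen, measured 45.0, 46.9 and 40.7 CPM in inosine libraries, against 45.7, 65.7 and 61.0 CPM in control libraries, where control 1 lay below inosine 2 (log2 -0.38, SE 0.14, edgeR adjusted p = 0.28).

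**Figure D4:**
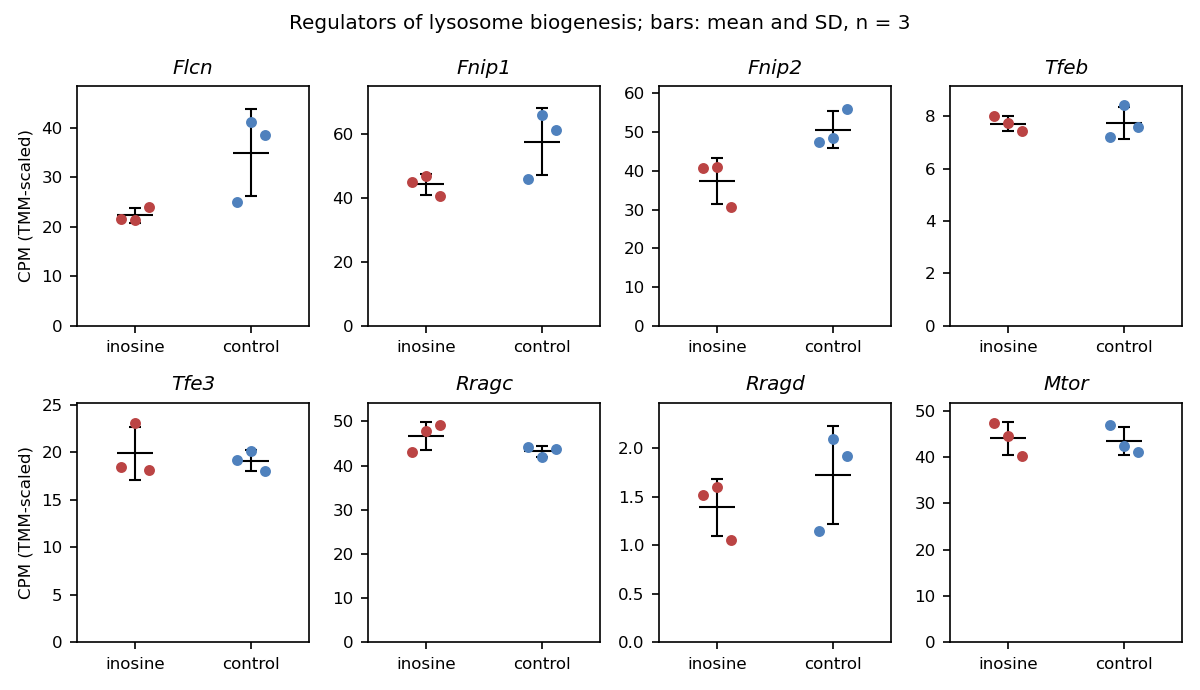
TMM-scaled CPM (y axis, from 0) by library for 8 regulators of lysosome biogenesis, inosine left (red) and control right (blue); bars are mean and SD, n = 3. Flcn, Fnip1 and Fnip2 are lower in inosine on average, with control 1 the lowest control of each, and Tfeb averages 7.715 CPM in inosine and 7.730 CPM in control.

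The transcription factors themselves did not differ beyond their spread. Tfeb measured 7.99, 7.73 and 7.42 CPM in inosine libraries, against 7.20, 8.40 and 7.58 CPM in control libraries (log2 -0.0024, SE 0.12, edgeR adjusted p = 0.995). Tfe3 was at 0.06 and Mitf at -0.01, and the Rag GTPase genes Rragc and Rragd, which are known TFEB targets, were at 0.11 and -0.30 (edgeR adjusted p = 0.53 and 0.67). Further lysosomal proteins outside the KEGG entry numbered 19, with 10 higher, 9 lower and a median of 0.01. Grn, progranulin, measured 221, 246 and 213 CPM in inosine libraries, against 237, 211 and 198 CPM in control libraries (log2 0.07, SE 0.10, edgeR adjusted p = 0.77). The genes of smallest p there were Tmem175, a lysosomal ion channel, at -0.30 (SE 0.11, edgeR adjusted p = 0.28), and Plbd2, a phospholipase B-like protein, at 0.21 (SE 0.09, edgeR adjusted p = 0.32), both without overlap of the groups.

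Of the remaining members, Dmxl1, Dmxl2, Wdr7 and Ncoa7, which bind or regulate the V-ATPase, lay between -0.17 and -0.08, the fucosidase Fuca2 was at -0.17, and the hyaluronidases Hyal2 and Hyal3 were at -0.15 and 0.59. Hyal3 was weakly expressed, at 0.777 ± 0.391 CPM in inosine and 0.514 ± 0.230 CPM in control (SD, n = 3), and shares 6064 bases with Hyal1 on the same strand. The 7 members that failed the low-count filter were Ap1m2, Ap3b2, Atp6v0a4, Ctsg, Ctsw, Entpd4 and Napsa, and apart from Entpd4 each stayed under 0.6 CPM in every library.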

How the data were processed

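Total liver RNA was sequenced in 3 inosine and 3 control libraries. The authors deposited estimated counts per gene, with TPM and FPKM beside them (FPKM not used here). Per the submitters' processing notes, which give no versions, the tools were Bowtie2 and RSEM and the build GRCm39. The authors' deposited log2 fold changes with DESeq2 p-values and q-values, per the file headers, run inosine over control and are named where printed. Whether the libraries were stranded is not stated. In each library 89.8% to 90.3% of the counts were whole; all were rounded. Column names matched 1 library each, and 0 columns of per-sample values stayed unmapped.

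Counts were tested with edgeR 4.0.16 (glmQLFit, glmQLFTest) in R 4.3.3, with TMM scaling, the default filter at a count of 10 (12326 genes kept), the group as the only term and all 6 libraries. Tests were two-sided, and adjustment was Benjamini-Hochberg over all genes tested at 0.05. The SE is the size of the log2 fold change divided by the square root of F. Alternatives were DESeq2 1.42.0 on the same genes, RLE scaling, no filter, a replicate block and omission of each library. The floor of 3 counts stands for 0.169 to 0.187 CPM and covers counting error only. The fitting script was first tested on simulated data. Within each group every pair of libraries differed by more than sampling noise (chi-square per gene 27.3 to 115.1).

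The members and lists were chosen with earlier results of these data known. Genes were named by a rule: members at an unadjusted p under 0.05, the smallest p of each other role, the 3 most abundant members, a fixed set of core genes and the 2 smallest p of each outside list. Other genes named were chosen after their values were seen. Values of 3 members are not reported here. Genes that share bases were found from the coordinates in the deposited table. Of the 120 tested members 29 share bases with another gene, and not all of them are named above. The strand given there differs from that of RefSeq for some genes, such as Ctsl, Galc, Dmxl2 and Flcn. Calls of same or other strand carry that limit.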

Additional observations from a re-analysis of the deposited data

How the results depend on the processing

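No lysosome gene was higher past the threshold in any setting. The count lower past the threshold was 0 as reported, with RLE scaling and with the replicate block, and 1 (Arsa) without the low-count filter and with DESeq2; over the 6 omissions of a library it ran from 0 to 1. Members at an unadjusted p under 0.05 were counted anew in each setting, so they need not be the same genes. The count higher was 7 as reported, 3 with DESeq2 and 2 with the replicate block. It ran from 0 to 10 over the omissions (0, 2 and 4 without inosine 1, inosine 2 and control 2). The count lower was 7 as reported and 4 with the replicate block. Over the omissions it ran from 2 to 9 (3, 2 and 4 without inosine 2, control 2 and control 3). The median log2 fold change of the members was 0.015 without the filter and 0.0037 to 0.0235 over the omissions. Outside the KEGG entry, 1 gene (Flcn) was lower past the threshold with DESeq2 and 0 to 1 over the omissions. The log2 ratio of the summed TPM was 0.11, 0.04 as CPM and 0.05 to 0.18 over the omissions, which were added after seeing the data. The sign of Ctsb (-0.082 to 0.049 over the omissions), Ctsl (-0.19 to 0.058), Lamp2 (-0.039 to 0.018), Npc1 (-0.056 to 0.11) and Tfeb (-0.047 to 0.062, and 0.0039 without the filter) turned in at least 1 omission; the cause was not tested.

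Control and inosine libraries share replicate numbers, but same-numbered libraries did not deviate together (correlations of -0.05, -0.05 and -0.04), so the numbers were not taken as pairs. With the replicate block the adjusted p of Arsa was 0.16, and 0 of 12326 genes passed. With 3 libraries per group the median SE of a member's log2 fold change was 0.11, so differences of that size are not resolved. This SE covers the spread between libraries as well as counting error.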
